A study of Mus musculus with 8 samples.

Results

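The 10 imprinted growth regulators that lie outside the Dlk1 to Meg3 locus and are described here were measured in cultures of mouse satellite cells, the resident stem cells of muscle fibres: Plagl1, Peg3, Ndn, Nnat, Grb10, Mest, Gnas, Phlda2, Peg10 and Sgce. They were chosen by symbol from a table of exon counts, where each has 1 row, and make up 10 of its 39017 genes. The sal003 group held 4 libraries of cells cultured with 10 µM sal003 over 4 days. Sal003 inhibits removal of the phosphate from eIF2α, a factor of translation initiation. The DMSO group held 4 libraries of cells kept for the same time in the vehicle. All cells came from diaphragm and abdominal muscle of adult Pax3GFP/+ mice, in which 1 Pax3 allele carries green fluorescent protein, and were seeded at 7500 cells per 35 mm plate. The labels give the dose as 10 uM in the sample attributes and the design text, and as 10 mM in the treatment protocol. They do not say whether replicates came from separate mice or cultures, so the p-values here rest on the spread among libraries, which may be technical.

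An imprinted gene is transcribed mainly from the allele inherited from 1 parent, because DNA methylation laid down in the egg or sperm marks a control region of its cluster. Many imprinted genes act on growth before birth, and in mouse a set of them is expressed together and regulated in part by the zinc finger protein encoded by Plagl1. Several are transcribed in satellite cells, in muscle that regenerates, or in both. The counts do not separate the parental alleles, so they give the total transcript level of a gene and not its imprint.

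Library totals lay between 37248830 and 39378523 counts in sal003, and in DMSO from 32753929 to 40234107 counts. DMSO replicate 2 stood apart, with 14437 genes detected against at least 16561 in every other library. Its Spearman correlation with the other DMSO libraries was at most 0.949, where the other DMSO pairs reached 0.979, so results that rest on it are given with and without it. The labelled cell type was checked against markers. Pax7 stood at 97.2 ± 2.54 CPM (counts scaled to the TMM-adjusted size of each library) in sal003 and 72.1 ± 6.74 CPM in DMSO, and Myod1 at 892 ± 52.3 CPM in sal003 and 896 ± 85.8 CPM in DMSO (SD, n = 4). Of the other satellite cell and myoblast markers, some were higher in sal003, some lower and some near 0, and the whole list is summarised below. Met averaged 297 ± 15.4 CPM in sal003 and 131 ± 22.1 CPM in DMSO. Sdc4, Vcam1, Pax3 and Myf5 had higher means in sal003, though their sal003 and DMSO libraries overlapped. Cdh15 averaged 120 ± 13.1 CPM in sal003 and 227 ± 20.3 CPM in DMSO. Itga7 averaged 300 ± 24.2 CPM in sal003 and 444 ± 47.8 CPM in DMSO. Calcr was at 0.142 CPM in sal003 and 0.118 CPM in DMSO, and Chrdl2 at 0.876 CPM in sal003 and 0.937 CPM in DMSO. The immune markers Ptprc, Adgre1, Lyz2 and C1qb, the endothelial markers Emcn and Cldn5 and the fibro-adipogenic markers Dcn, Lum and Dpt had 0 counts in all 8 libraries. Others of these lists were detected: Fbn1 averaged 301 ± 13.8 CPM in sal003 and 233 ± 26.4 CPM in DMSO, Col3a1 106 ± 9.34 CPM in sal003 and 101 ± 8.93 CPM in DMSO, and the endothelial Vwf 2.98 ± 0.592 CPM in sal003 and 8.33 ± 1.16 CPM in DMSO.

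The comparison of sal003 with DMSO asks which transcripts differ when dephosphorylation of eIF2α is inhibited. Of the 10 genes, 9 passed the filter on low counts and Phlda2 did not. Plagl1 and Peg10 rose in sal003. Gnas, Grb10 and Ndn fell, and Peg3, Mest, Nnat and Sgce did not pass the test. These 5 calls are set against 22.7% of the 15816 tested genes called in either direction, 10.6% higher and 12.2% lower (edgeR quasi-likelihood test, adjusted p below 0.05 over all tested genes). That share is larger among abundant genes, and Peg3, Gnas, Grb10, Peg10, Mest and Plagl1 each lay above at least 93.5% of tested genes in level. Among genes with at least 10 CPM in 4 samples, 3449 of 9120 were called. Under that filter Peg10 and Plagl1 were called higher and Gnas, Grb10 and Mest lower. At an unadjusted p below 0.05, 7 of the 9 were called, against 31.9% of all tested genes. The median log2 fold change of the 9 genes was -0.34, and that of all tested genes was -0.00. With total counts in place of TMM that median was 0.17, and 2878 genes were higher and 1365 lower, against 1671 and 1923 with TMM, while the same 5 of the 10 genes were called. In bulk libraries, fewer cells that express a gene and less RNA per cell cannot be told apart. In total the 10 genes took from 0.585% to 0.595% of the counts of a library in sal003 and from 0.55% to 0.625% in DMSO.

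**Figure D1:**
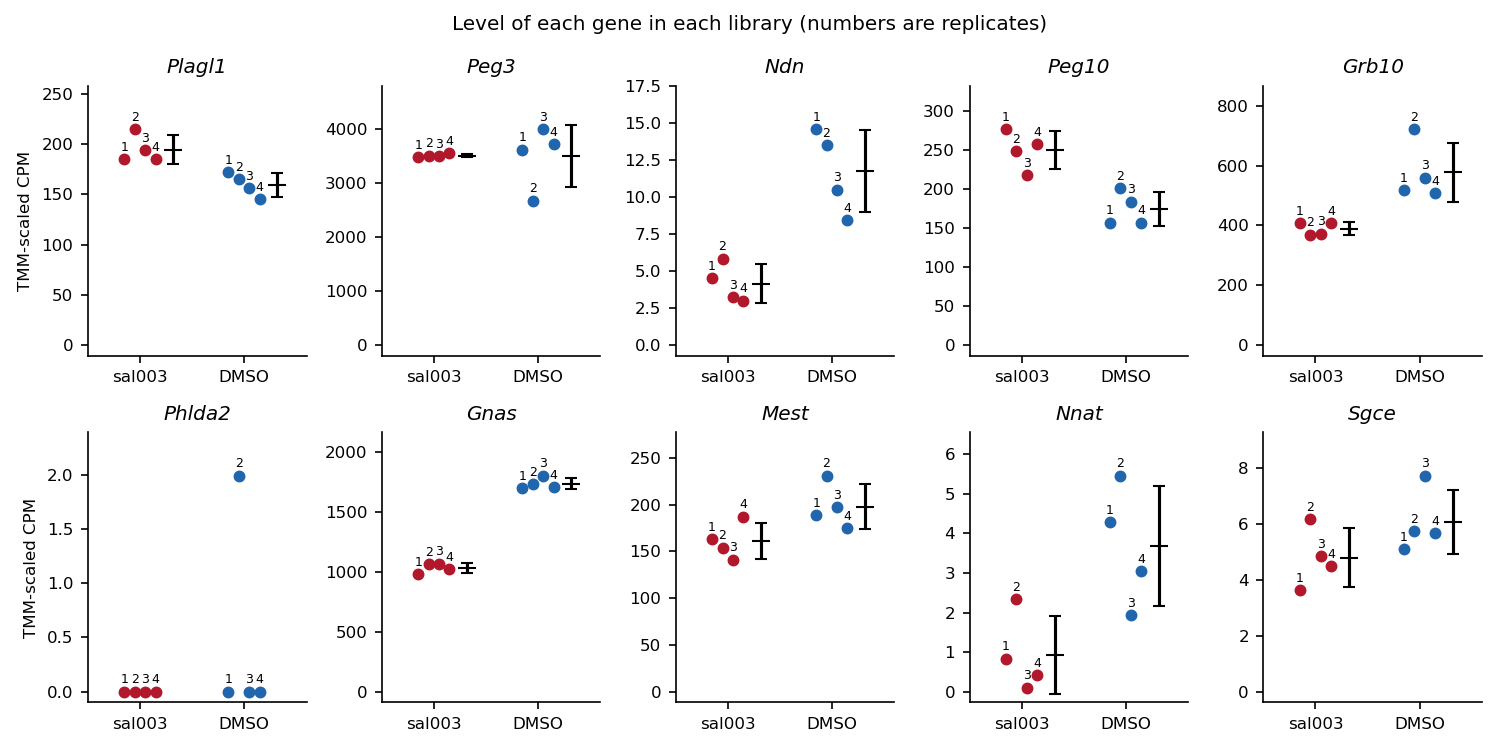
TMM-scaled CPM of the 10 genes in the 4 sal003 libraries (red) and the 4 DMSO libraries (blue), with the replicate number above each point and the mean ± SD to its right, except for Phlda2, where no mean is drawn. The sal003 and DMSO libraries do not overlap for Plagl1, Ndn, Peg10, Grb10 and Gnas, and DMSO replicate 2 is the lowest DMSO library for Peg3 and the highest for Peg10, Grb10, Mest, Nnat and Phlda2.

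Levels of the 10 genes spanned more than 2 orders of magnitude when scaled to length, as CPM per kb of merged GENCODE exon. Peg3 was first in both groups, at 263 ± 2.26 CPM per kb in sal003 and 262 ± 43 in DMSO (SD, n = 4), and was the 15th most abundant gene of the table by mean CPM. Gnas followed at 92.4 ± 3.67 CPM per kb in sal003 and 155 ± 4.26 in DMSO. Grb10 and Mest came next in both groups, and their libraries overlapped with each other. In sal003 the libraries of Mest, at 40.9 ± 4.94 CPM per kb, also overlapped with those of Peg10, at 37.6 ± 3.72. In DMSO they did not, with Mest at 50.2 ± 5.95 CPM per kb and Peg10 at 26.2 ± 3.25. Plagl1 was sixth, at 24.9 ± 1.83 CPM per kb in sal003 and 20.4 ± 1.5 in DMSO. Ndn, Nnat and Sgce were the low group: in sal003 they averaged 1.12, 0.502 and 0.451 CPM per kb, and in DMSO 3.19, 2.01 and 0.572. Neighbours in that order overlapped, except Nnat and Sgce in DMSO. Phlda2 was last in both groups, at 0 in sal003 and above 0 in 1 DMSO library.

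**Figure D2:**
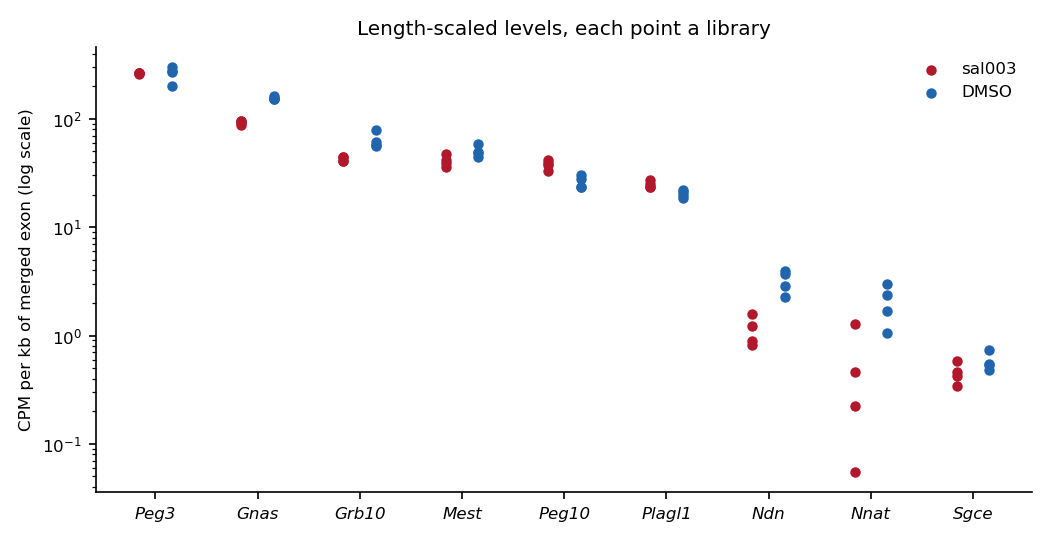
CPM per kb of merged exon, on a log axis, for 9 of the 10 genes in order of their mean level in DMSO; each point is 1 library, sal003 in red left of DMSO in blue. Phlda2, at 0 in 7 libraries, cannot be drawn on this axis. Peg3 lies near 263 CPM per kb in sal003, and Ndn, Nnat and Sgce lie below 4 CPM per kb in all libraries.

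Plagl1 and Peg3 encode zinc finger transcription factors expressed from the paternal allele. Plagl1, also called Zac1, restrains the cell cycle when overexpressed and in mouse binds enhancers of other imprinted genes (ENSMUSG00000019817, chromosome 10, 13060504 to 13131694, plus strand of mm10). Its level was 185, 215, 194 and 185 CPM in sal003 replicates 1 to 4, against 172, 165, 156 and 145 CPM in DMSO replicates 1 to 4. All sal003 libraries lay above all DMSO libraries, as was so, in either direction, for 5 of the 9 genes tested here and for 26.8% of all tested genes. Plagl1 differed by 0.29 ± 0.09 on the log2 scale (edgeR estimate ± SE, adjusted p = 0.0298), and by 0.32 ± 0.09 without DMSO replicate 2 (adjusted p = 0.00738). The call was lost without sal003 replicate 2 (adjusted p = 0.118) or 3 (0.0693) and without DMSO replicate 3 (0.061) or 4 (0.0659). With total counts in place of TMM the value was 0.47 (adjusted p = 0.00158).

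Peg3, also called Pw1, acts in p53-dependent death and in stem cells of several adult tissues, satellite cells among them (ENSMUSG00000002265, chromosome 7, 6703892 to 6730431, minus strand). It had 3468, 3498, 3489 and 3540 CPM in sal003, against 3608, 2671, 3989 and 3716 CPM in DMSO. The sal003 libraries differed from each other by little (coefficient of variation 0.861%), and the DMSO libraries by more (16.4%), with replicate 2 the lowest. For Peg3 the log2 fold change came to 0.00 ± 0.10 (edgeR adjusted p = 0.996), with a 95% interval from -0.20 to 0.20. Without DMSO replicate 2, all sal003 libraries lay below the remaining DMSO libraries, which averaged 3771 ± 197 CPM (SD, n = 3). The log2 fold change was then -0.10 ± 0.06 and did not pass (adjusted p = 0.243). Its sign also depended on the scaling, as given among the processing alternatives.

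Ndn encodes necdin, a protein of the MAGE family that binds E2F1 and p53, holds neurons out of the cell cycle and promotes differentiation of mouse myoblasts. It lies in the imprinted Prader-Willi region (ENSMUSG00000033585, chromosome 7, 62346569 to 62350262, plus strand). Its level was 4.51, 5.84, 3.26 and 3.01 CPM in sal003, against 14.6, 13.5, 10.5 and 8.47 CPM in DMSO. The groups did not overlap, although reads were few, from 117 to 246 counts in a sal003 library and from 322 to 457 in a DMSO library. Ndn fell, with a log2 fold change of -1.50 ± 0.32 that was the largest in size of the 5 calls (adjusted p = 0.00235 by edgeR). It ranged from -1.71 to -1.37 over the 8 fits without 1 library, all past the threshold. The row named Snrpn, a spliceosome gene of the same region, whose identifier GENCODE M21 gives to the overlapping gene Gm38393, fell as well, at 5.87 ± 1.49 CPM in sal003 and 11 ± 2.56 CPM in DMSO (log2 fold change -0.91 ± 0.29, adjusted p = 0.036). Peg12, a gene of the same region singled out after its value was seen, rose (0.77 ± 0.22, adjusted p = 0.0157). Ube3a, the ubiquitin ligase of the region, also named after the fact, had a log2 fold change of 0.09 ± 0.11 and did not pass, and Magel2, the gene beside Ndn and of the same family, had 0 counts in all 8 libraries.

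Nnat encodes neuronatin, a small membrane protein that resembles the calcium pump inhibitor phospholamban, and lies inside an intron of Blcap (ENSMUSG00000067786, chromosome 2, 157560078 to 157562522, plus strand). It had 0.833, 2.33, 0.1 and 0.412 CPM in sal003, against 4.28, 5.46, 1.94 and 3.05 CPM in DMSO. Replicate 2 was the highest library in each group, and the sal003 replicate 2 library lay above the lowest DMSO library. These values rest on 4 to 98 counts per sal003 library and 66 to 184 per DMSO library. The estimate, -2.00 ± 0.83 on the log2 scale, was not past the threshold (adjusted p = 0.104 by edgeR). It passed without sal003 replicate 2, at -3.03 (adjusted p = 0.0323), and in the DESeq2 and limma-voom tests. Blcap averaged 17.3 ± 2.21 CPM in sal003 and 13.6 ± 1.61 CPM in DMSO and did not pass (0.34 ± 0.20, adjusted p = 0.266).

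Words of transcription factor sites were looked up on both strands of the 250 bases before each RefSeq start (GRCm38.p6), and the stretches of 30 bases around the matches in Plagl1, Peg3, Ndn and Nnat are shown, since these are the windows in which a searched word of a factor other than MyoD was found. Capitals mark CACGTG, an E-box, in Plagl1, TGACGTCA, the site of CREB, in Peg3, and GCATGCGC, the core of the site of NRF1, in Ndn and Nnat, where 2 matches on opposite strands overlap in Nnat. The words were chosen after sequences and results had been seen.
Plagl1: gcctcctcctcaCACGTGacactggagggg
Peg3: actgactccgtTGACGTCAactccgtgcct
Ndn: cttcccaacacGCATGCGCaatatcgcatc
Nnat: tcccccaagcGCGCATGCGCacttaggtgg
The Plagl1 stretch is chr10:13090638-13090667 on the plus strand, between annotated exons of the gene, and the Peg3 stretch is chr7:6730579-6730608 on the minus strand, most of it in the first exon of Usp29, which runs the other way. The Ndn stretch is chr7:62348244-62348273 on the plus strand, inside the 5′ UTR that GENCODE M21 gives Ndn, and its word ends 14 bases before the RefSeq start. The Nnat stretch is chr2:157560042-157560071 on the plus strand, before the first exon of Nnat, and its words end 16 bases before the start. CACGTG was in 6.02%, TGACGTCA in 1.55% and GCATGCGC in 2.26% of the 32851 such windows in the table. CAGCTG, the E-box that MyoD prefers, was in windows of Mest and Phlda2 (13% of all windows), and TGATGNAAT, a composite site of ATF4, was in no window of the 10 genes (0.816% of all windows). Windows were found for 8 of the 10 genes, 14 in all, and for neither Peg10 nor Sgce. They had a median of 14 CpG dinucleotides and a GC content of 62.2%, against 6 and 52.4% over all windows.

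Peg10 and Sgce are transcribed in opposite directions from neighbouring starts and are both expressed from the paternal allele. Peg10 derives from a retrotransposon and is required for the mouse placenta (ENSMUSG00000092035, chromosome 6, 4747306 to 4760517, plus strand), and Sgce encodes ε-sarcoglycan, a membrane protein related to the sarcoglycans of muscle (ENSMUSG00000004631, chromosome 6, 4674350 to 4747207, minus strand). Peg10 had 277, 249, 218 and 258 CPM in sal003, against 157, 201, 184 and 157 CPM in DMSO. The groups did not overlap, and Peg10 rose by 0.52 ± 0.10 on the log2 scale (adjusted p = 0.00168 by edgeR). It passed the threshold in all 8 fits without 1 library, between 0.47 and 0.60.

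Sgce had 3.63, 6.17, 4.86 and 4.48 CPM in sal003, against 5.11, 5.75, 7.73 and 5.68 CPM in DMSO. The groups overlapped, and the log2 fold change of -0.34 ± 0.34 did not pass (adjusted p = 0.572; 95% interval from -1.02 to 0.33). It was -0.16 with total counts in place of TMM (adjusted p = 0.811). Other sarcoglycan genes fell in sal003. Sgca, the muscle-specific α subunit, averaged 20.8 ± 3.53 CPM in sal003 and 68.7 ± 10.2 CPM in DMSO (log2 fold change -1.72 ± 0.16). Sgcb had a log2 fold change of -0.60 ± 0.13 and Sgcd of -2.80 ± 0.83, and both fell, while Sgcz had 0 counts.

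Grb10 and Phlda2 restrain growth and are expressed from the maternal allele in most tissues. Grb10 encodes an adaptor that binds the insulin and IGF1 receptors and inhibits their signal (ENSMUSG00000020176, chromosome 11, 11930508 to 12038683, minus strand). It had 407, 369, 373 and 408 CPM in sal003, against 519, 722, 560 and 508 CPM in DMSO. The groups did not overlap, and DMSO replicate 2 was the highest. Grb10 was lower, at -0.57 ± 0.11 on the log2 scale (adjusted p = 0.000833 by edgeR), which was -0.43 ± 0.07 without DMSO replicate 2 (adjusted p = 4.83e-05). Cobl, which nucleates actin filaments, and Ddc, an amino acid decarboxylase, flank Grb10. Cobl averaged 23.6 ± 3.15 CPM in sal003 and 65.2 ± 9.54 CPM in DMSO (log2 fold change -1.46 ± 0.15), and Ddc 2.31 ± 0.7 CPM in sal003 and 9.04 ± 3.21 CPM in DMSO (-1.97 ± 0.39). Both fell.

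Phlda2 encodes a small protein with a pleckstrin homology domain that limits growth of the mouse placenta (ENSMUSG00000010760, chromosome 7, 143501545 to 143503150, minus strand). It had 0 counts in all 4 sal003 libraries and in DMSO replicates 1, 3 and 4, and 67 counts in DMSO replicate 2. A count of 0 allows up to 3 counts, which is 0.0712 to 0.0772 CPM in the sal003 libraries and 0.0789 to 0.0959 CPM in the 3 DMSO libraries, counting error only. Cdkn1c, the p57 inhibitor of the cell cycle in the same cluster, fell to 5.01 ± 0.844 CPM in sal003, against 38.7 ± 10.6 CPM in DMSO (log2 fold change -2.95 ± 0.24, adjusted p = 1.93e-07). Cd81, a tetraspanin gene of the cluster, averaged 86.5 ± 6.34 CPM in sal003 and 151 ± 17.7 CPM in DMSO (-0.80 ± 0.11).

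Gnas encodes Gsα, the G protein subunit that activates adenylyl cyclase, and from further promoters the paternal XLαs and the maternal NESP55 transcripts (ENSMUSG00000027523, chromosome 2, 174284320 to 174346744, plus strand). One row counts them all, so the products cannot be told apart. Gnas had 981, 1063, 1070 and 1023 CPM in sal003, against 1701, 1735, 1804 and 1706 CPM in DMSO. The groups did not overlap, and within each the libraries lay close together (coefficient of variation 3.97% in sal003 and 2.74% in DMSO). Gnas fell by 0.75 ± 0.07 on the log2 scale, with the lowest p of the 9 genes (adjusted p = 1.07e-06 by edgeR), and its log2 fold change stayed between -0.76 and -0.72 in the 8 fits without 1 library. Nespas, the antisense transcript of the locus, fell by 0.91 ± 0.24 on the log2 scale (adjusted p = 0.0108). It shares 988 bases, or 8.83%, of the merged Gnas exons, and Gm20721 shares 1469 bases, or 13.1%, also on the other strand. No source used here says whether counting used strand, so the values of Gnas and of Nespas in particular carry that uncertainty.

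Mest encodes a membrane enzyme of the α/β hydrolase family and is expressed from the paternal allele (ENSMUSG00000051855, chromosome 6, 30723547 to 30748465, plus strand). It had 163, 154, 141 and 187 CPM in sal003, against 189, 231, 197 and 175 CPM in DMSO. The groups overlapped, since sal003 replicate 4 lay above DMSO replicate 4. Mest stood at -0.29 ± 0.11 on the log2 scale, short of the threshold (adjusted p = 0.0651 by edgeR). It passed without sal003 replicate 4 (adjusted p = 0.0337) or DMSO replicate 4 (0.0454) and under several alternatives, whereas without DMSO replicate 2 it was -0.20 ± 0.09 (adjusted p = 0.114) and with total counts in place of TMM -0.12 (adjusted p = 0.493). The opposite strand gene Copg2 covers 912 bases, or 23.1%, of the merged Mest exons. Copg2, a subunit of the coatomer, fell (log2 fold change -0.74 ± 0.21, adjusted p = 0.0204), with the same uncertainty about strand.

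To ask whether a gene and a neighbour in its cluster changed by unequal amounts, the log2 ratio of their CPM was compared between the groups in 8 pairs. A ninth pair, Phlda2 with Cdkn1c, was not tested because Phlda2 did not pass the filter. The Peg10 to Sgce ratio was 6.07, 5.22, 5.35 and 5.70 in sal003 and 4.81, 5.01, 4.49 and 4.67 in DMSO, with no overlap. The difference was 0.84 (two-sided exact permutation test p = 0.0286, the smallest that 4 against 4 libraries can give). The Grb10 to Cobl ratio was likewise higher in every sal003 library, by 0.89 on average (exact p = 0.0286), Cobl having the larger fall. With adjustment over the 8 pairs neither passed (adjusted p = 0.114 for both). That adjustment could not decide the question, since a pair at the smallest exact p passes only if most of the 8 pairs share it. Ndn to Snrpn, at -0.46 ± 0.44 in sal003 and 0.09 ± 0.21 in DMSO, and Nnat to Blcap, at -3.88 ± 1.09 in sal003 and -1.83 ± 0.66 in DMSO, overlapped between groups (exact p = 0.0571 for both). The differences for Plagl1 to Phactr2, Peg3 to Usp29, Mest to Copg2 and Gnas to Nespas were -0.05, -0.29, 0.39 and 0.11, with exact p of at least 0.371. Without DMSO replicate 2 they were 0.04, 0.12, 0.70 and -0.06, and the Mest to Copg2 ratio no longer overlapped between the groups (adjusted p = 0.152 by the exact test, which could not pass with 3 libraries in a group). Usp29 lay near the floor, at 1.4 ± 0.31 CPM in sal003 and 1.34 ± 1.1 CPM in DMSO, and at 0 in DMSO replicate 2. The Peg3 to Usp29 ratio of that library is therefore set by the pseudocount. The difference was -0.75 with a pseudocount of 0.1 CPM and -0.07 with 2 CPM.

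**Figure D3:**
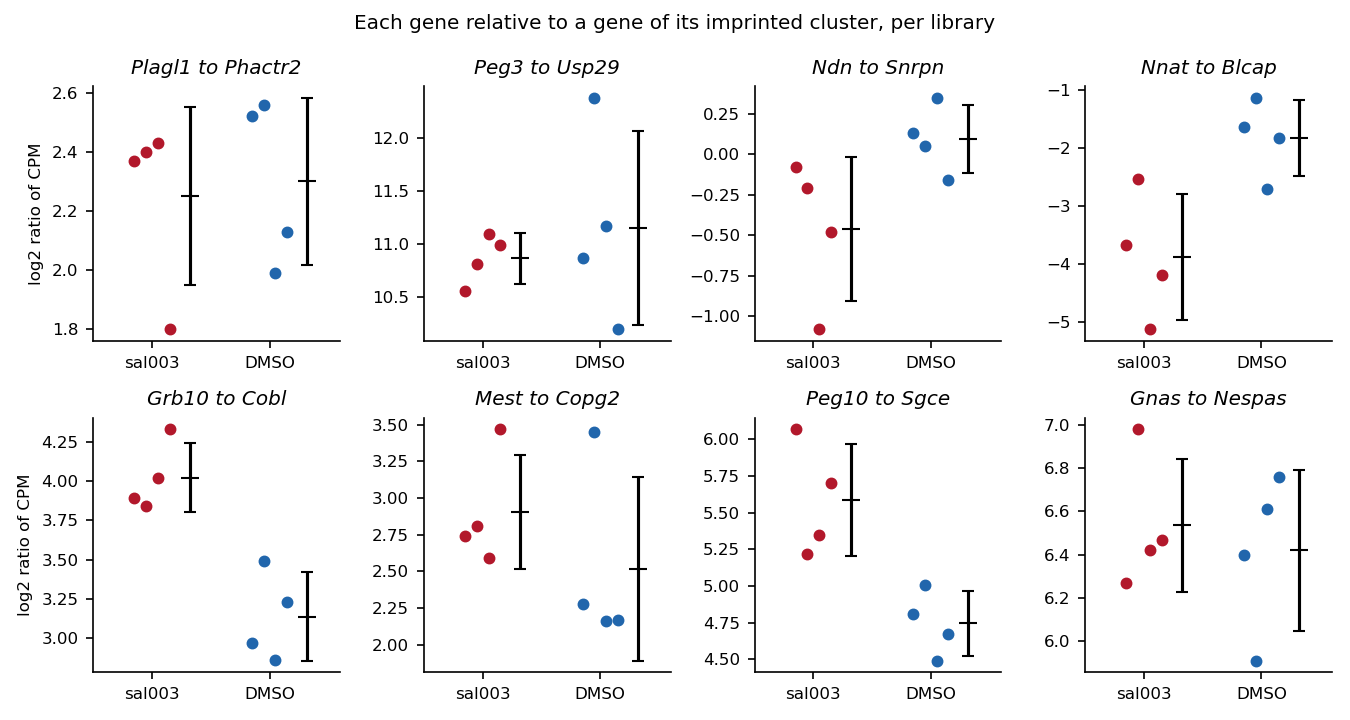
Log2 ratio of CPM (pseudocount 0.5) of 8 genes to a gene of the same imprinted cluster, each point 1 library, with the mean ± SD to its right; sal003 is red and left of DMSO in blue. The groups separate for Grb10 to Cobl and Peg10 to Sgce, and overlap for the other 6 pairs.

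Of 40 further genes listed from the clusters of these regulators, 26 were tested, 1 rose, which was Peg12, and 8 fell, with a median log2 fold change of -0.27. Of 38 genes elsewhere that were listed as imprinted, 27 were tested, 2 rose and 11 fell, with a median of -0.43. Whether each is imprinted in these cells cannot be read from the counts. Over all tested genes 10.6% were higher and 12.2% lower. Within the 27 tested genes elsewhere, Gatm, the first enzyme of creatine synthesis (-1.71 ± 0.13), and the fetal growth factor Igf2 (-0.91 ± 0.07) had the lowest p. The noncoding Meg3 (-1.53 ± 0.13) and Zdbf2 (-1.40 ± 0.13) came next in that list. The 2 that rose, named after their values were seen, were the chloride channel Ano1 (1.13 ± 0.28) and the phosphatase Inpp5f (0.57 ± 0.19). H19, the noncoding RNA of the Igf2 locus, was also singled out after the fact and averaged 12454 ± 389 CPM in sal003 and 14183 ± 1688 CPM in DMSO and did not pass (-0.19 ± 0.08, adjusted p = 0.134).

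**Figure D4:**
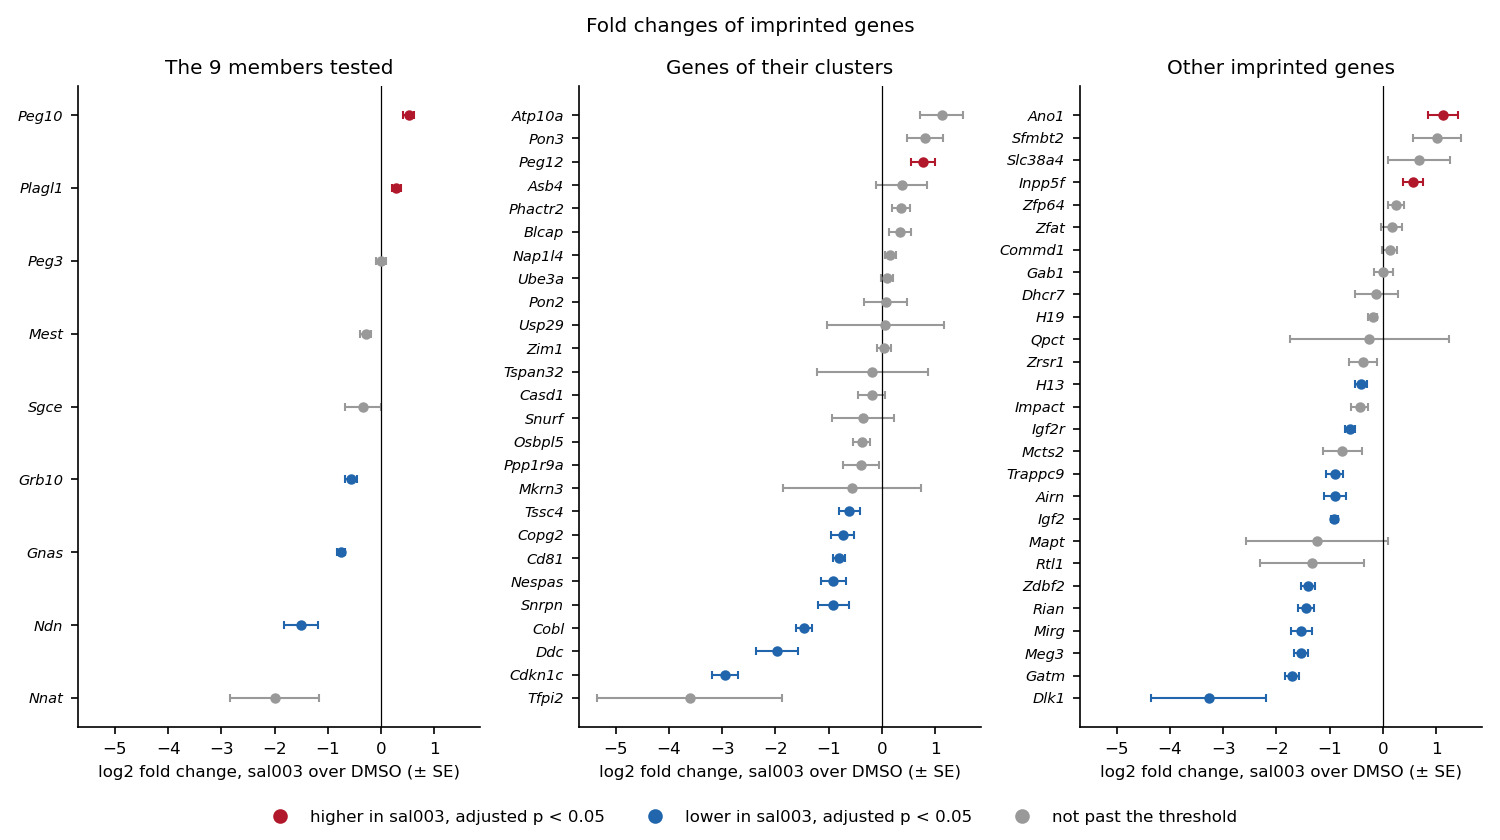
Log2 fold change of sal003 over DMSO with its SE. Shown are the 9 genes tested, 26 genes of their clusters and 27 other genes listed as imprinted. Red is higher and blue lower in sal003 at adjusted p below 0.05, and grey did not pass. Peg10 and Plagl1 are the 2 of the 9 that rose, and among genes of their clusters Cdkn1c, at -2.95, is the lowest that passed, while Tfpi2, at -3.61 with a wide SE, did not pass.

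Of 16 tested genes listed around imprint maintenance, 7 rose, 1 fell and 8 did not pass, with a median of 0.35. Over all tested genes 10.6% were higher and 12.2% lower. The list is wider than maintenance itself. Among those that did not pass were Dnmt3a and Dnmt3b, which write new methylation, and Tet1, Tet2 and Tet3, which act in its removal, all named after their values were seen. The maintenance methyltransferase Dnmt1 averaged 573 ± 20 CPM in sal003 and 325 ± 31.8 CPM in DMSO (log2 fold change 0.82 ± 0.09). Its partner Uhrf1 averaged 209 ± 0.889 CPM in sal003 and 85.8 ± 5.49 CPM in DMSO (1.29 ± 0.09). The helicase Hells (1.71 ± 0.13) and the chromatin protein Smchd1 (0.94 ± 0.12) also rose. The gene of this list that fell, Zfp57, named after its value was seen, binds methylated imprinting control regions, and averaged 16.5 ± 2.41 CPM in sal003 and 29.6 ± 4.58 CPM in DMSO (-0.85 ± 0.18, adjusted p = 0.00252).

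Among 43 listed signalling partners of the 10 genes, 40 were tested, 6 rose and 13 fell (median -0.17), against 10.6% higher and 12.2% lower over all tested genes. Subunits of protein kinase A, the kinase that cAMP made downstream of Gsα activates, were among the lower genes, while the catalytic Prkacb did not pass (-0.20 ± 0.11) and the regulatory Prkar1a fell (-0.55 ± 0.08). The catalytic subunit Prkaca averaged 190 ± 11.6 CPM in sal003 and 343 ± 43.3 CPM in DMSO (-0.85 ± 0.10), and the regulatory subunit Prkar2a 176 ± 13.8 CPM in sal003 and 370 ± 38.9 CPM in DMSO (-1.07 ± 0.10). Akt2, a kinase of insulin signalling, fell (-0.99 ± 0.10), as did the calcium pump Atp2a1 (-2.39 ± 0.10). The receptors bound by Grb10 did not pass, with a log2 fold change of -0.24 for Insr and of -0.01 for Igf1r. E2f1, which necdin binds, rose (0.96 ± 0.16), and so did Trp53 (0.46 ± 0.14). Prkacb, Prkar1a, Insr, Igf1r, E2f1 and Trp53 were named after their values were seen.

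The libraries also differed between the groups in differentiation and proliferation. With only 2 conditions, any gene called between the groups moves together with these differences. All 15 listed genes of differentiating muscle fell, and their summed level was 16553 to 19333 CPM in sal003 and 60930 to 86933 CPM in DMSO. Of 14 satellite cell and myoblast genes 13 were tested, 2 rose and 4 fell, with a median log2 fold change of -0.01 and sums of 2947 to 3229 CPM in sal003 and 4546 to 5221 CPM in DMSO. Most of the gap between these sums was Des, at 1171 ± 40.7 CPM in sal003 and 2941 ± 224 CPM in DMSO, and the 2 that rose were Pax7 and the receptor Met. All 12 listed proliferation genes rose, with a summed level of 4237 to 4473 CPM in sal003 and 1796 to 2319 CPM in DMSO. Of 8 smooth muscle and pericyte markers 3 fell and 0 rose among 5 tested, and their sum, most of it the muscle filament gene Des, was 1300 to 1420 CPM in sal003 and 2932 to 3462 CPM in DMSO. Besides Des, Cspg4 and Notch3 were the markers that fell. Cspg4 averaged 149 ± 14 CPM in sal003 and 197 ± 32.5 CPM in DMSO, and Notch3 44.5 ± 5.91 CPM in sal003 and 83.9 ± 12.8 CPM in DMSO. Cnn1, the calponin gene of smooth muscle, was at 0. Of 8 glia and tendon markers 3 were tested, 1 fell and 0 rose, with sums of 56 to 83.3 CPM in sal003 and 118 to 144 CPM in DMSO. The part of these differences in the changes of the 10 genes was not tested. Endothelial sums were at most 9.68 CPM in sal003 and 13 CPM in DMSO, with 1 of 5 tested markers lower, and immune sums at most 4.56 CPM in sal003 and 5.82 CPM in DMSO, with 0 of 2 past the threshold. Fibro-adipogenic sums were 399 to 437 CPM in sal003 and 342 to 385 CPM in DMSO, with 1 of 7 tested markers higher, which was Fbn1.

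For the 9 tested genes, Phlda2 left out, the most similar genes were sought by Pearson correlation of log2 CPM over the 8 libraries, among tested genes of at least median level. These values are a description, and the 8 points share the split into 2 conditions and the libraries themselves. Gnas was most like Pfkm, the muscle phosphofructokinase (r = 0.995), and Grb10 was most like the casein kinase Csnk1a1 (0.994) and Derl1 (0.991). Ndn was most like Slc4a2 (0.983) and Hmox1 (0.981), Peg10 was most like Fam136a (0.981) and Simc1 (0.976), and Plagl1 was most like Fasn (0.962) and Tspan4 (0.960). Peg3 was most like Adam12 (0.977) and Spag9 (0.975), genes with a log2 fold change of -0.02 each. Mest was most like Ube4a (0.971), Nnat was most like Pcdh1 (0.956) and Sgce was most like Ndufa6 (0.950).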

How the data were processed

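RNA of the cultures was purified on columns, cleared of ribosomal and mitochondrial transcripts and turned into strand-specific libraries, per the labels' protocols. The authors deposited whole-number counts per gene over exons, and per the submitters' processing notes the tools were Trimmomatic 0.32, STAR 2.3.0e and featureCounts 1.4.4, on mm10. No source used here gives the strand, overlap or multiple-alignment settings. Of the deposited counts from 1 to 20, 79.1% to 81.2% were even in sal003 libraries and 75.6% to 83.4% in DMSO libraries, so halved counts were an alternative. Each replicate pair differed by a chi-square of at least 24.3 per degree of freedom, so none was treated as a duplicate.

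In R 4.3.3, genes were kept with filterByExpr (minimum count 10, minimum total 15), scaled by TMM and tested with edgeR 4.0.16 (robust quasi-likelihood, condition only, two-sided, Benjamini-Hochberg over all tested genes). SE is the log2 fold change divided by the square root of F. CPM are TMM-scaled, and intervals are the estimate ± 1.96 SE. Coordinates and exons come from GENCODE M21 (96.4% of identifiers matched), promoter sequences from RefSeq. Pair ratios used CPM plus 0.5 and an exact permutation test over 70 splits. On simulated counts for this comparison, with 15104 genes passing the filter, the same test called 14 of 64 genes simulated at a 1.5-fold change, 37 of 63 at 2-fold, 53 of 62 at 4-fold, and 7 of the 14915 simulated without one.

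The members, lists and alternatives were chosen with earlier results of these data known. Named were all members, at most 4 called genes of a list, by lowest p, pair neighbours, and the 2 most similar genes of each member. The rule's stress genes did not pass: Eif2s1 (log2 fold change 0.33 ± 0.12, adjusted p = 0.0711) and Atf4 (-0.23 ± 0.10, adjusted p = 0.104). Genes of the satellite cell, differentiation and proliferation lists are given as counts and sums, apart from a few satellite cell and myoblast markers given with their levels. Genes outside the rule are marked as named after their values were seen, with some exceptions. Cell type markers outside the rule, such as Pax7, Myod1 and Col3a1, genes with 0 counts, and Tfpi2 carry no such mark. Some genes that the rule would name are not reported here. Alternatives were other scalings, filters and tests (DESeq2 1.42.0, limma 3.58.1), a replicate block and leaving out each library.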

Additional observations from a re-analysis of the deposited data

Results flagged for a closer look

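Of 35 groups of 4 libraries checked for a library far from the other 3, 3 had one, where chance gives about 1 in 20. Phlda2 stood at 1.99 CPM in DMSO replicate 2 and at 0 in the other DMSO libraries. The log2 ratio of Plagl1 to Phactr2 was 1.80 in sal003 replicate 4, against 2.37 to 2.43 in the other sal003 libraries. The log2 ratio of Mest to Copg2 was 3.45 in DMSO replicate 2, against 2.16 to 2.28 in the other DMSO libraries. There Copg2 stood at 20.6 CPM, against 38.7 to 43.7 CPM in those libraries.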

How the results depend on the processing

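Gnas, Grb10 and Peg10 kept their direction and call in all 19 alternatives, and Ndn in the 18 that tested it. The 10 CPM filter removes Ndn, Nnat and Sgce. Total counts in place of TMM, added after seeing the data, moved the median of all genes to 0.17 and the calls over all genes to 2878 higher and 1365 lower (1671 and 1923 with TMM), and gave 2 members higher and 3 lower. Peg3 stood at 0.18 there (adjusted p = 0.196), close to that median. Its sign turned, never past the threshold, with DESeq2 size factors (-0.00), upper-quartile scaling (-0.01), the 10 CPM filter (-0.04), the DESeq2 test (-0.00), limma-voom (-0.09), halved counts (-0.00) and without DMSO replicate 2 (-0.10, the lowest of the fits without 1 library, of which the highest was 0.08). Leaving out the 20 most abundant genes removes Peg3. At an adjusted p below 0.01, 2308 of all genes and 1 higher member, Peg10, were called, and fewer calls follow from the stricter threshold. The number of higher members ran from 1 to 2 and of lower members from 3 to 4 over the fits without 1 library, with 2883 to 4471 calls over all genes. DESeq2 and limma-voom each called 5 lower members, adding Mest and Nnat, and the cause was not tested. Same-numbered libraries did not deviate together over all tested genes (correlations of -0.01 to 0.04). No pairing by number was seen, but these correlations cannot exclude one. An edgeR fit with the replicate block gave 3430 calls over all genes, 2 members higher and 4 lower, adding Nnat (-2.62, adjusted p = 0.0435). For the pair ratios (exact permutation test), 0 of 8 passed after adjustment with all libraries or with either other pseudocount, while with all libraries 2 had an unadjusted exact p of 0.0286. With all libraries a pair can pass only if most of the 8 pairs reach that smallest p, so the repeated 0 of 8 says little of stability. The 0 of 8 without 1 library says nothing of stability, since 3 against 4 libraries cannot pass. The Mest to Copg2 difference ranged from 0.20 to 0.70 there. The sign turned for Plagl1 to Phactr2 without sal003 replicate 4 (0.10), DMSO replicate 1 (0.03) or DMSO replicate 2 (0.04; range -0.15 to 0.10 without 1 library), for Peg3 to Usp29 without DMSO replicate 2 (0.12; range -0.61 to 0.12), and for Gnas to Nespas without sal003 replicate 2 (-0.04) or DMSO replicate 2 (-0.06; range -0.06 to 0.22). Depth limits Phlda2, Nnat, Ndn and Sgce, each with at most 457 counts per library. Usp29, at 0 CPM in DMSO replicate 2, limits the Peg3 to Usp29 ratio in the same way.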
